A study of Mus musculus with 6 samples.

Results

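The genes described here are Lyz1 and Lyz2, the mouse c-type lysozymes, 2 of the 18193 genes with a probe set of their own in this series. They were chosen by their signal on these same arrays, since both read lower in the Scap_ko group. Every probe set that the array annotation assigns to either gene was used: 4 of the 45101 on the MOE430 V2 array, 3 for Lyz1 and 1 for Lyz2. All 4 carry a single gene symbol, and 0 carry several. The samples were total RNA of fetal mouse lung taken whole at E18.5, shortly before birth. Of 6 arrays, 3 are labelled Scap_ko, with the SREBP escort gene Scap removed in the respiratory epithelium (Scap d/d), and 3 are labelled Scap_control. All 6 came from a mixed background of the FVB/N and B6 strains. The genotype of the controls beyond that name, the Cre driver, the sex of the fetuses and whether a sample is 1 animal or a pool are not given in the sources used here, so spreads between arrays may be partly technical. Because the choice of genes used this contrast, the lysozyme values are a description and carry no test.

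Lysozyme cleaves the peptidoglycan of bacterial cell walls. Mice carry a pair of c-type lysozyme genes where humans have a single one. Lyz2 (lysozyme M) is the form known from macrophages, neutrophils and alveolar type II cells, and Lyz1 (lysozyme P) is best known from Paneth cells of the intestine. Type II cells secrete lysozyme into the airspace together with surfactant, and the Lyz2 locus is widely used to drive Cre in myeloid cells. Scap carries the SREBP transcription factors to the Golgi, from where they switch on sterol and fatty acid synthesis.

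In the RefSeq annotation of GRCm38.p6 the lysozyme genes lie side by side on the minus strand, Lyz2 at chr10:117277541-117282272 and Lyz1 at chr10:117287795-117292868, with 5522 bases between them. The sequences just upstream of the annotated starts are shown to compare the genes there. They lie before the transcripts, so they do not show whether probes can tell the transcripts apart. Each stretch holds the 120 bases before the start (RefSeq, GRCm38.p6, minus strand, 5′ to 3′), at chr10:117282273-117282392 for Lyz2 and chr10:117292869-117292988 for Lyz1. Capitals mark the bases at which the stretches differ.
Lyz2: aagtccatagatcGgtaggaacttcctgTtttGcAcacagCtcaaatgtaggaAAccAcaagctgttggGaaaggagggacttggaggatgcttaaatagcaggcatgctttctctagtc
Lyz1: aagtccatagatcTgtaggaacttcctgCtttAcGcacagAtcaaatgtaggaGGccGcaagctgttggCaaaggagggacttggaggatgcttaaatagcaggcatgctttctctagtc

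The stretches were identical at 111 of 120 positions (92.5%) without a gap. Over all 250 bases before the start, a global alignment gave 79.4% identical columns. The ETS core GGAA, the heart of sites for factors such as PU.1, was found on both strands 5 times in the 300-base window of Lyz2 (250 bases before the start and 50 after) and 4 times in that of Lyz1. A facing pair at -103 and -98 was present in both, within the shared letters. GGAA occurs in 96.0% of 32851 windows of the same length, so its presence sets neither gene apart. The longer PU.1 core GAGGAA (which contains GGAA; 28.3% of windows), the sterol element core CACNCCAC (6.2%) and the TATA box TATAAA (13.6%) were in neither window. The C/EBP motif TTGCNNAA (10.8%) was in Lyz1 once, at -209, and not in Lyz2. These matches describe letters in a window and are not binding sites.

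The Lyz2 probe set 1423547_at read 28952, 30415 and 43941.6 signal units on Scap_ko arrays 1 to 3, against 64048.1, 50189.4 and 62573.1 on Scap_control arrays 1 to 3. The groups did not overlap, and the highest Scap_ko array stood at 87.6% of the lowest Scap_control array. Lyz2 averaged 34436 ± 8264 in Scap_ko lungs and 58937 ± 7611 in Scap_control lungs (SD, n = 3 each), a log2 difference of -0.79 with a standard error (SE) of 0.22, or 57.7% of control. Signals are linear array units, log2 differences are Scap_ko minus Scap_control, and SEs here come from a limma fit over all 45037 probe sets that are not controls of the array itself.

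The brighter Lyz1 probe set by mean, 1436996_x_at, read 36990.2, 44772 and 47356.5 on the Scap_ko arrays, against 80597.9, 72681 and 81614.5 on the Scap_control arrays. Its group means were 43040 ± 5396 in Scap_ko and 78298 ± 4891 in Scap_control lungs (SD, n = 3 each; log2 difference -0.87, SE 0.15, 54.7% of control). The other bright Lyz1 set, 1439426_x_at, read 30225, 37793.7 and 38127.3 on the Scap_ko arrays, against 81346.1, 88702.7 and 79148.6 on the Scap_control arrays. It gave the lowest log2 difference of the members, -1.24 (SE 0.15), or 42.4% of control, and its highest Scap_ko array stood at 48.2% of its lowest Scap_control array. Neither set overlapped between the groups.

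**Figure D1:**
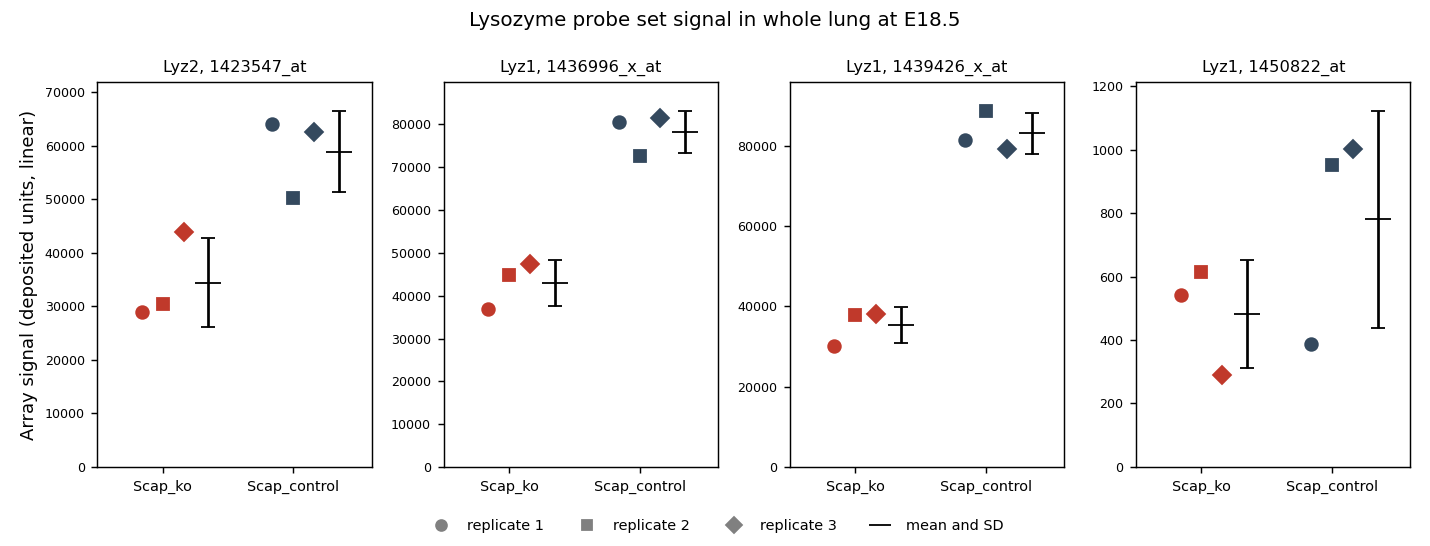
Signal of the 4 lysozyme probe sets (linear deposited units, axis from 0, a separate scale in each panel) on 3 Scap_ko and 3 Scap_control arrays; symbols mark the replicate number and the black bar gives the group mean with its SD. The 3 bright sets separate the groups, and the dim Lyz1 set 1450822_at overlaps.

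The third Lyz1 set, 1450822_at, behaved differently. It read 542, 614.1 and 288.5 on the Scap_ko arrays, against 387.6, 952.7 and 1002.6 on the Scap_control arrays, so the groups overlapped. Its mean was 481.5 ± 171 in Scap_ko and 781 ± 342 in Scap_control lungs (SD, n = 3 each; log2 difference -0.65, SE 0.49). Between arrays numbered 1 it was higher in Scap_ko, at 139.8% of control. Without both arrays numbered 3 its log2 difference was -0.07, and leaving out single arrays gave -1.09 without Scap_control replicate 1 and -0.32 without Scap_ko replicate 3.

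The array's naming marks both bright Lyz1 sets with the suffix x, used where some probes also match other transcripts, while the dim set 1450822_at and the Lyz2 set carry the plain suffix. How much of the bright Lyz1 signal comes from Lyz2 transcript was not tested, so the bright sets cannot be taken to measure Lyz1 alone. The plainly named Lyz1 set ranked 20763 in mean signal among 45037 probe sets, just above the median signal of 512.3 that served as the brightness limit. The 3 bright sets ranked 108, 113 and 190, where a compressed signal would make a difference look smaller, and this was not tested.

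Non-overlap with Scap_ko lower held for 3 of the 4 members, beside 5.22% of the 22519 probe sets at or above the brightness limit. The dim Lyz1 set reached that limit only through the controls, so it is not placed among them. Of those 22519, 85 had a log2 difference as low as that of the Lyz2 set or lower, 65 as low as 1436996_x_at and 30 as low as 1439426_x_at. The genes were picked for this difference, so these ranks only place them.

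Spread within the groups was not used in the choice, and here the sets differed. Among Scap_control arrays the coefficient of variation was 12.9% for the Lyz2 set, 6.25% for 1436996_x_at, 6.02% for 1439426_x_at and 43.7% for the dim set. Among Scap_ko arrays it was 24.0% for Lyz2, 12.5% and 12.6% for the bright Lyz1 sets and 35.5% for the dim one. Scap_ko replicate 3 stood above its group mean by 0.38 log2 for Lyz2, against 0.15 and 0.12 for the bright Lyz1 sets. Scap_control replicate 2 stood below its group mean for Lyz2, by a log2 deviation of -0.22, and above it for 1439426_x_at, at 0.10.

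Taken as deviations from the group means over the 6 arrays (4 degrees of freedom), the Lyz2 set correlated at 0.80 with 1436996_x_at, at 0.29 with 1439426_x_at and at -0.72 with the dim Lyz1 set. The bright Lyz1 sets correlated with each other at 0.62. These few points come from the same arrays and describe only how the sets varied. Relative to the Lyz2 set on the same array, the log2 signal of 1439426_x_at was 0.06, 0.31 and -0.20 on the Scap_ko arrays, against 0.34, 0.82 and 0.34 on the Scap_control arrays. The groups narrowly failed to overlap in this quantity (0.31 against 0.34), the mean difference being -0.44. Both sets were picked for their fall, and no share of non-overlap over other probe sets was computed. The same quantity for 1436996_x_at was 0.35, 0.56 and 0.11 on the Scap_ko arrays, against 0.33, 0.53 and 0.38 on the Scap_control arrays, which overlap.

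The other genes of the lysozyme family had low signal in these lungs. Of 8 further genes listed (c-type relatives, alpha-lactalbumin and the g-type lysozymes), 7 had a probe set and 0 reached the brightness limit. Spaca3, a sperm acrosome protein of the family, had the highest of these signals, 144.6 to 258.9 on Scap_ko and 36.8 to 224.3 on Scap_control arrays. Lyzl1, Lyzl4, Lyzl6, Lalba, Lyg1 and Lyg2 lay between 3.9 and 111.9 on Scap_ko and between 6.4 and 139.9 on Scap_control arrays. The lysozyme-like gene 9530003J23Rik, next to Lyz2 on chromosome 10, read 136.8 ± 39.3 in Scap_ko and 173.9 ± 55.6 in Scap_control lungs (SD, n = 3 each).

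Within 250 kb on either side lie 8 protein-coding genes including the lysozymes, of which 6 had a probe set with a single symbol. This window was chosen after the lysozyme values were seen. Cpsf6, a pre-mRNA cleavage factor on the Lyz1 side, read 8231 ± 842 in Scap_ko and 8298 ± 1187 in Scap_control lungs (log2 difference -0.01, limma adjusted p = 0.999, n = 3 each). Yeats4, a reader of acetylated histones, had a log2 difference of 0.08 (adjusted p = 0.959). Cct2, a chaperonin subunit, had one of 0.04 (adjusted p = 0.986). The dim 9530003J23Rik described above, which was not tested, stood at 79.5% of control (log2 difference -0.33).

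For all other genes, each gene was represented by its brightest probe set, and 10960 genes at or above the brightness limit were tested together. Limma at a Benjamini-Hochberg adjusted p of 0.05 called 1 gene (0.00912%), the peroxisomal oxidase gene Acox2, higher in Scap_ko and named after its value was seen, and 0 with the replicate number as a block. At an unadjusted p of 0.05, 648 genes (5.91%) differed, of which 334 (3.05%) were lower and 314 (2.86%) higher. The targeted transcript, Scap, read 1846.8, 3285.8 and 2702 on the Scap_ko arrays, against 7264.1, 4194.6 and 3079.7 on the Scap_control arrays, with overlap (exact two-sided permutation p = 0.2, where 0.1 is the smallest that 3 against 3 arrays allow). Within each of the 3 pairs of the same number Scap read lower in Scap_ko, which that test does not use. Of 15 tested SREBP target genes, 0 were called, and 12 were lower at an unadjusted p of 0.05. Their summed signal was 101597 to 124121 on Scap_ko and 179127 to 204759 on Scap_control arrays. Arrays numbered 3 of both groups stood apart from the other 4 on the first principal component (36.0% of the variance).

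Alveolar type II cells, which make surfactant, are a known source of lysozyme in the lung, and most of their listed genes had negative differences. Of 21 genes listed, 20 were tested: 16 had negative and 4 positive log2 differences, and the median was -0.25, against 0.00 over all 10960 genes. None was called at an adjusted p of 0.05, 8 were lower and 1 higher at an unadjusted p of 0.05, and 5 did not overlap with Scap_ko lower (5.75% of genes tested). The list's summed signal was 519765 to 624522 on Scap_ko and 625828 to 752211 on Scap_control arrays. This sum includes Scd1, which read 5388.9 on Scap_ko array 3 (highest sum of its group) and 34231.4 on Scap_control array 2 (lowest of its group). Without Scd1 the summed signals of the groups overlap. Negative differences were not limited to this list. Of 9 tested genes of airway club and secretory cells 9 were negative (median -0.23, 0 called, 1 lower without overlap). Among 10 endothelial genes 9 were negative (median -0.18, 0 called, 2 lower without overlap). The 10 alveolar type I genes were split 5 to 5 (median 0.00, 0 called, 1 lower without overlap). No test was made of a difference between the lists. The liver genes Alb and Afp were uneven among the controls: Alb read 256.8, 132.8 and 260.5 on the Scap_ko arrays, against 1799.9, 1047.8 and 219.1 on the Scap_control arrays, and Afp 64, 45.1 and 40.1, against 693.2, 6700.1 and 22.2. They were picked for mention once their values were known, and both passed the brightness limit only through the controls. The part of these other cell types in the lysozyme values was not tested. In whole lung, fewer type II cells and less RNA per cell cannot be told apart, and the part of either in the lysozyme values was not tested.

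Sftpa1, which encodes surfactant protein A, a collectin that binds microbes, read 14767, 12965.4 and 35042.3 on the Scap_ko arrays, against 39988.4, 36558.6 and 48755.4 on the Scap_control arrays (log2 difference -1.14, SE 0.35, limma adjusted p = 0.747). As for Lyz2, Scap_ko replicate 3 was the highest of its group. Hc, the gene of complement C5, read 10567.1, 11809.3 and 17618.1 on the Scap_ko arrays, against 20528.6, 18409.5 and 20518.6 on the Scap_control arrays (log2 difference -0.61, SE 0.19, adjusted p = 0.747). Lpcat1, which remodels surfactant phosphatidylcholine, had a log2 difference of -0.41 (SE 0.10, adjusted p = 0.676), and Dlk1, a delta-like membrane protein, one of -0.62 (SE 0.13, adjusted p = 0.676). None of these 4 passed the test. Their groups did not overlap, with Scap_ko lower, which also held for 5.75% of all genes tested. These 4 were named for their small p within the list.

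Scd1, a fatty acid desaturase of type II cells and itself an SREBP target, had the lowest log2 difference of the list at -2.60 (SE 0.40, adjusted p = 0.295), and it was called without Scap_ko replicate 2 (adjusted p = 0.0146). Ank3, the scaffold protein ankyrin G, was the listed gene with non-overlap in the other direction (log2 difference 0.42, limma adjusted p = 0.742). Non-overlap in that direction held for 6.09% of genes tested. Of the other Ank3 probe sets above the brightness limit, 3 gave 0.19, 0.13 and 0.09 and 1 gave -0.15. Sftpc, surfactant protein C and the defining type II gene, read 97286 ± 6167 in Scap_ko and 97440 ± 15052 in Scap_control lungs (SD, n = 3 each). Its log2 difference was 0.01 (SE 0.13, limma adjusted p = 0.999), and -0.03 under quantile normalization. Sftpc lay near the top of the scale, at 106271 on Scap_control array 1, where the highest signal was 110510.4. A compressed signal would make a difference look smaller, and this was not tested.

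**Figure D2:**
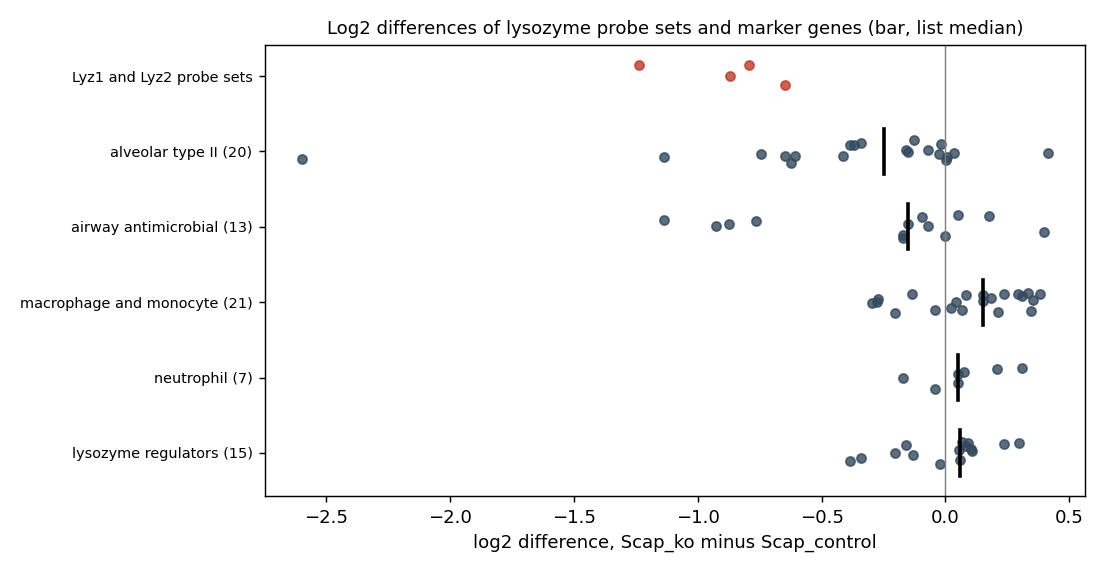
Log2 differences (Scap_ko minus Scap_control) of the 4 lysozyme probe sets and of the tested genes in 5 lists, 1 point per probe set or gene, with the list median as a black bar and the number of genes in brackets. The lysozyme sets lie between -1.24 and -0.65, the type II median at -0.25 and the macrophage and monocyte median at 0.15.

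Macrophages and monocytes are the other main source of lysozyme, and their markers had mostly positive differences. Of 29 genes listed, 21 were tested, with 15 positive and 6 negative log2 differences and a median of 0.15, which was 0.03 without Scap_ko replicate 3 or without Scap_control replicate 2, 0.23 without Scap_control replicate 3, and 0.04 with the mean of all probe sets. None was called, 2 were higher and 0 lower at an unadjusted p of 0.05, and 0 were lower without overlap. The summed signal was 52857 to 69515 on Scap_ko and 50143 to 63123 on Scap_control arrays, with the highest value of each group on the arrays numbered 3. Ptprc, the pan-leukocyte gene CD45, read 2196.3, 2009.3 and 3043.4 on the Scap_ko arrays, against 1950.8, 2061.6 and 2152 on the Scap_control arrays (log2 difference 0.21, SE 0.16, adjusted p = 0.904). Without Scap_ko replicate 3 its log2 difference was 0.03, and without Scap_ko replicate 2 it was 0.33.

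Among single markers, Ccr2, a chemokine receptor of monocytes, did not overlap, with Scap_ko higher (log2 difference 0.38, SE 0.11, adjusted p = 0.744; 6.09% of genes tested did not overlap in this direction), and its other set above the brightness limit gave 0.58, while the mean of all its probe sets, dimmer ones included, gave -0.10. Cd14, the lipopolysaccharide co-receptor, had a log2 difference of 0.35 (adjusted p = 0.806), Tyrobp, a myeloid signalling adaptor, 0.33 (adjusted p = 0.864) and Fcgr1, an antibody receptor, 0.29 (adjusted p = 0.853). With the mean of all its probe sets, dimmer ones included, Fcgr1 gave 0.00066. Beside the 15 positive members, 6 had negative log2 differences. These were the complement genes C1qa (-0.30), C1qc (-0.27, adjusted p = 0.873) and C1qb (-0.21). The others were the chemokine receptor Cx3cr1 (-0.27, adjusted p = 0.889), Csf1r (-0.13) and Mrc1 (-0.04). The 8 listed genes below the brightness limit included Marco and Siglec1, receptors of tissue macrophages, and Itgam and Itgax.

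Neutrophil markers gave no common direction. Of 16 listed genes 7 were tested, with 5 positive and 2 negative log2 differences, a median of 0.05, 0 called and 0 at an unadjusted p of 0.05 in either direction. S100a8, a calcium-binding protein of neutrophil granulocytes, averaged 6721 ± 1080 in Scap_ko and 6409 ± 1266 in Scap_control lungs, and its partner S100a9 3476 ± 985 and 2945 ± 509 (SD, n = 3 each; adjusted p = 0.982 for S100a8 and 0.955 for S100a9). The granule genes Elane, Mpo, Prtn3 and Ctsg lay below the brightness limit, between 9.2 and 280.6 on Scap_ko and between 8.5 and 332.2 on Scap_control arrays. The list's summed signal was 16254 to 25828 on Scap_ko and 18733 to 22797 on Scap_control arrays.

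**Figure D3:**
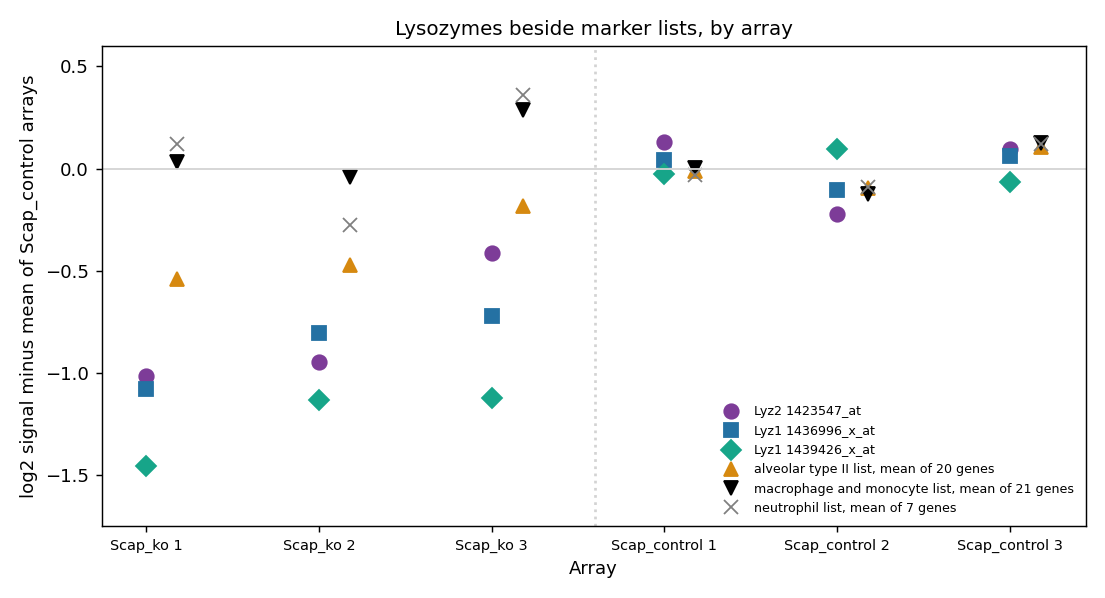
Log2 signal on each array minus the mean of the Scap_control arrays, for the 3 bright lysozyme probe sets and for the mean of the tested type II, macrophage and monocyte, and neutrophil genes. On the Scap_ko arrays the type II mean, which includes Scd1, lies between -0.54 and -0.18, and the macrophage and monocyte mean between -0.04 and 0.29.

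Lysozyme is 1 of several antimicrobial proteins that the airway and alveolar lining secretes. Of 22 such genes listed, some of them shared with the type II and neutrophil lists, 13 were tested. Their log2 differences were negative in 10 and positive in 3, with a median of -0.15. Of the 13, 0 were called and 1 (Sftpa1) was lower at an unadjusted limma p of 0.05 (3.05% of genes tested). The same gene alone did not overlap, with Scap_ko lower (5.75% of genes tested). The median was 0.0045 without Scap_ko replicate 2 and 0.04 without Scap_control replicate 3. The list's summed signal was 136565, 128251 and 220817 on the Scap_ko arrays, against 193424, 165632 and 232760 on the Scap_control arrays, highest in both groups on the arrays numbered 3.

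Chil1, a secreted chitinase-like protein, read 7730.7, 7197.1 and 18819.1 on the Scap_ko arrays, against 25193.9, 11929 and 17100.4 on the Scap_control arrays, and the groups overlapped (log2 difference -0.77, SE 0.41, adjusted p = 0.873; -1.21 without Scap_ko replicate 3 and -0.49 without Scap_control replicate 1). The mucin gene Muc5b had a log2 difference of -0.93 (SE 0.44, adjusted p = 0.853), which was -0.52 without Scap_control replicate 3 and -0.54 without Scap_ko replicate 2. Its mean of 449.2 in Scap_ko lay below the brightness limit and that of 856 in Scap_control above it, so it was tested only through the controls. The lectin gene Reg3g had a log2 difference of -0.87 (SE 0.79, adjusted p = 0.926), which was -0.0038 without Scap_ko replicate 2, -0.39 without Scap_control replicate 3 and -1.53 without Scap_ko replicate 3. Lcn2, an iron-sequestering protein, averaged 7659 ± 3043 in Scap_ko and 8271 ± 1202 in Scap_control lungs (adjusted p = 0.965). The cytokine gene Il18 (0.40, adjusted p = 0.853) was among the 3 with a positive log2 difference, and Wfdc2, a protease inhibitor, had one of -0.17 (adjusted p = 0.958).

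Transcription factors known to act on lysozyme genes or in lung epithelium showed no shared direction. Of 15 tested, 9 had positive and 6 negative log2 differences (median 0.06), 0 were called, 1 was lower and 1 higher at an unadjusted p of 0.05, and 2, Elf5 and Foxa2, did not overlap with Scap_ko lower (5.75% of genes tested). Cebpa, the C/EBP factor of type II and myeloid cells, read 8966, 9009.7 and 12312 on the Scap_ko arrays, against 12451.7, 11415.6 and 14242.7 on the Scap_control arrays (log2 difference -0.34, SE 0.15, adjusted p = 0.853). Spi1, which encodes PU.1 of myeloid cells, read 1062.6, 1060.6 and 1226.1 on the Scap_ko arrays, against 1011.3, 781 and 1072.5 on the Scap_control arrays (log2 difference 0.24, SE 0.14, adjusted p = 0.890; 0.10 without Scap_control replicate 2). Elf5, an epithelial ETS factor, had a log2 difference of -0.38 (limma adjusted p = 0.791). Its other probe set gave 0.11, but averaged only 616.2 in Scap_ko and 558.1 in Scap_control lungs, just above the brightness limit. Foxa2, a forkhead factor of lung epithelium, had one of -0.13 (adjusted p = 0.899), Ets1 -0.20 (adjusted p = 0.890) and Runx1, a haematopoietic factor, 0.30 (adjusted p = 0.833), while the other probe sets of Runx1 gave -0.08 and -0.29.

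The genes whose log2 signal followed Lyz2 most closely over all 6 arrays, among 10648 tested genes with a regular symbol, were Ghr (growth hormone receptor, r = 0.993), Cdo1 (cysteine dioxygenase, 0.988), Klc4 (a kinesin light chain, 0.984), Abca1 (a cholesterol exporter, 0.984), Vnn1 (a pantetheinase, 0.982) and Fabp5 (a fatty acid binding protein, 0.982). This measure contains the group difference, and 150 genes (1.41%) reached an r of at least 0.9. Of these 6, Fabp5 and Cdo1 had the lowest log2 differences, -0.74 (SE 0.19, adjusted p = 0.742) and -0.58 (SE 0.15, adjusted p = 0.736), and Ghr one of only -0.07. Fabp5 read 29996.3, 30583.3 and 45123.5 on the Scap_ko arrays, against 57566.6, 48832 and 68334.9 on the Scap_control arrays. Its order of arrays within the Scap_ko group was that of Lyz2, with replicate 3 highest. Among the Scap_control arrays the orders differed, with replicate 3 highest for Fabp5 and replicate 1 for Lyz2.

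With the group means removed, which leaves out the difference that picked the genes, the closest were Ice1, Bclaf3, Faap20, Vamp4, Fbxw5 and Tmem163, with r between 0.996 and 0.999. By this measure 386 genes (3.63%) reached 0.9. Their log2 differences lay between -0.27 and 0.20, and 5 of the 6 were positive. Among the genes described above, r by this measure was 0.96 for Chil1, 0.95 for Hc, 0.93 for Cebpa, 0.92 for Lpcat1, 0.91 for Lcn2, 0.90 for Sftpa1, 0.82 for Spi1, 0.78 for Ptprc, 0.15 for Sftpc, -0.04 for Scd1, -0.59 for Cx3cr1, -0.65 for Foxa2 and -0.78 for Ets1. All these values come from the same 6 RNA samples and are descriptions only.

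The lysozyme differences kept their sign under the alternatives run. For the bright sets, whose groups did not overlap, leaving out arrays could not have changed it. The log2 difference lay between -0.98 and -0.68 for Lyz2, between -0.94 and -0.76 for 1436996_x_at and between -1.33 and -1.13 for 1439426_x_at, whichever array or scaling was changed. Pairs of the same number gave 45.2%, 60.6% and 70.2% of control for Lyz2 in pairs 1 to 3. They gave 45.9%, 61.6% and 58.0% for 1436996_x_at, and 37.2%, 42.6% and 48.2% for 1439426_x_at.

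**Figure D4:**
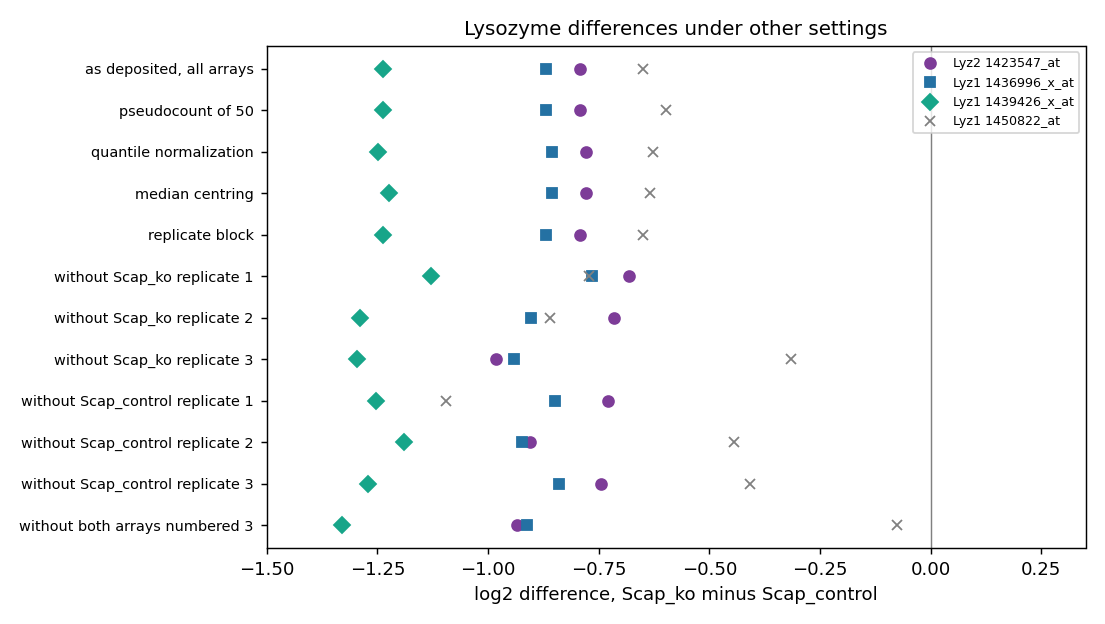
Log2 difference (Scap_ko minus Scap_control) of each lysozyme probe set under each scaling, pseudocount and left-out array. The 3 bright sets stay between -1.33 and -0.68, and the dim Lyz1 set moves between -1.09 and -0.07.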

How the data were processed

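Per the labels' protocols and design text, RNeasy-purified RNA of whole lung was biotin-labelled for MOE430 V2 arrays. The authors deposited linear intensity values for 45101 probe sets. The submitters' processing notes name RMA, but the values are linear, and each array has a mean of 1500 after trimming 2% at either end; scaling software, background correction and detection calls are not given in the sources used here. Array medians lay between 490.9 and 530.5, and the number of arrays limits precision.

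Values were log2-transformed without a pseudocount, and 64 control features of the array were dropped. Of the rest, 34945 carried 1 symbol, 932 several and 9160 none. For 18193 genes the brightest probe set by mean signal was kept, and 7233 below the median signal (512.3) were not tested. Groups were compared with limma 3.58.1 in R 4.3.3 (4 residual degrees of freedom). The steps were tested on simulated data. Promoter windows were aligned with Biopython 1.88.

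Members and lists were chosen with earlier results of these data known. Besides Scap, Sftpc, Ptprc and the lysozymes, named genes are up to 6 of smallest p per list and the 6 most like Lyz2 by each measure. Genes of the locus, those named as dim, and C1qa, C1qb, Csf1r and Mrc1 were added afterwards. Samples of the same number had deviations correlating at 0.19, 0.19 and 0.42, and those of unlike number between -0.29 and 0.16. Values by pairs of the same number are therefore also given. The main fit and the Scap test did not use this pairing, and the replicate block was run as an alternative.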

Additional observations from a re-analysis of the deposited data

How the results depend on the processing

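All 4 lysozyme differences kept their direction under the scalings, pseudocount, replicate block and left-out arrays tried. For the bright sets, whose groups did not overlap, leaving out arrays could not have reversed it. With groups of equal size the replicate block returns the difference of the main fit, so it could not reverse any of them. The single gene called higher became 0 with no filter on dim genes, with the filter at the 75th percentile, with the mean of all probe sets, with the replicate block and without both arrays numbered 3; leaving out single arrays gave 0 in every case, and 0 to 1 called lower (Scd1). Members of the type II list called ranged from 0 to 1 when single arrays were left out. The median log2 difference then ranged from -0.037 to 0.23 for the neutrophil list and from -0.36 to 0.035 for the antimicrobial list. It kept its sign for the type II list (-0.33 to -0.21), the macrophage and monocyte list (0.03 to 0.23) and the regulators (0.04 to 0.08). Without Scd1, an alternative added after seeing the data, the type II median was -0.16.

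Differences of some named genes also changed sign. Sftpc went from 0.01 to -0.027 under quantile normalization. With the mean of all probe sets, Ccr2 went from 0.38 to -0.10 and Ice1 from 0.02 to -0.021. Without both arrays numbered 3, Csf3r went from 0.31 to -0.17 and Ice1 to -0.0034. With single arrays left out, log2 differences ranged from -0.13 to 0.077 for Sftpc, -0.48 to 0.022 for Lcn2, -0.037 to 0.23 for S100a8, -0.18 to 0.13 for Mmp8, -0.14 to 0.26 for Ngp, -0.35 to 0.034 for Wfdc2 and -0.013 to 0.039 for Ice1. The causes were not tested. The replicate block changed no other call. Whether the dim Lyz1 set lies above background is not known without detection calls.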
